A study of Mus musculus with 8 samples.

Results

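The Krüppel-like factor (Klf) genes described here are Klf2, Klf3, Klf4, Klf6, Klf7, Klf9, Klf10, Klf11, Klf12 and Klf13, a list of 10 among 47937 gene IDs in the count tables. Gene names in the authors' deposited table identified 9 of them, and Klf4, which that table does not name, was found through a reference list of gene names. The cells were mouse A-MuLV transformed pro-B cells, that is, B-cell precursors that the Abelson virus keeps dividing in culture. Their endogenous EBF1, a transcription factor that B-lineage cells depend on, had been replaced by an introduced modified gene, and the genotype is labelled EBF1-dTAG_N. The dTAG part lets the small molecule dTAG-13 direct the tagged protein to degradation. The comparison therefore asks which RNAs differ soon after EBF1 is removed. Treated cells received 0.5 µM dTAG-13 for 6 h (4 libraries) and control cells received the solvent DMSO (4 libraries). The control titles read 0 h, but their treatment label gives DMSO for 6 h. Both groups carry the tagged EBF1, and no library of untagged cells given dTAG-13 is used here, so an effect of the compound alone cannot be told apart from loss of EBF1. The labels call the libraries biological replicates. Whether they are separate clones or cultures of 1 line is not stated, so p-values measure only the spread between these libraries.

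Exonic reads numbered 28982316 to 38999496 per library, and reads outside exons made up 20.4% to 27.3% of whole-gene reads. Of 15 pro-B markers 14 were high enough to test, while Kit had no exonic read. After dTAG-13, 11 of the 14 fell and 2 rose at an edgeR adjusted p below 0.05, against 14.0% and 14.3% of all tested genes. The 15 summed to 3680 to 3760 CPM (exonic reads relative to the scaled library size) in DMSO and 3080 to 3220 CPM after dTAG-13. None of 9 T-cell markers reached the test and 7 of them, Cd3e, Cd4 and Cd8a included, had no exonic read. The 8 myeloid markers summed to 0.162 to 0.449 CPM in DMSO and 0.485 to 1.12 CPM after dTAG-13, with Cd14, Elane and Csf3r at 0. The 6 erythroid markers summed to 0.587 to 0.933 CPM and 0.0272 to 0.208 CPM, with both globin genes of the list at 0. The 7 stromal and endothelial markers summed to 63.8 to 68.7 CPM and 93.9 to 99.2 CPM, nearly all of it Pecam1, which leukocytes also express, with Pdgfrb, Cdh5 and Kdr at 0. Their part in the results below was not tested.

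Klf proteins bind GC-rich and CACCC sequences through similar zinc fingers at their C-terminal end, and differ in the regions that recruit other proteins. Textbook accounts place Klf2, Klf4, Klf6 and Klf7 among members that mostly activate transcription, Klf3 and Klf12 among repressors that bind the co-repressor CtBP, and Klf9, Klf10, Klf11 and Klf13 among members that bind the co-repressor SIN3A. In lymphocytes the family is known above all for Klf2, which keeps resting cells quiescent and controls where they home.

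The activator-type members with enough reads, Klf2, Klf6 and Klf7, rose after dTAG-13. Of the SIN3A-binding members Klf9, Klf10 and Klf11 fell, while Klf13, the most abundant Klf gene of the list, rose slightly. Klf3, Klf4 and Klf12 were at or near 0 in all libraries. In numbers, 7 of the 10 listed genes passed the filter on low counts, and all 7 were called by edgeR at an adjusted p below 0.05, with 4 higher and 3 lower. Over all 12889 genes tested, 28.3% were called, 14.3% higher and 14.0% lower. The 7 passed the filter in both groups, with at least 40 exonic reads in every library. The median log2 change of the 7 was 0.18, against 0.00 over all tested genes. Changes of at least 1.5-fold were estimated for 3 of the 7 (6.18% of all tested genes), and a change of at least 2-fold for 1, Klf2 (2.90%). The groups did not overlap for 6 of the 7, all but Klf11 (27.7% of all tested genes). In bulk RNA, fewer cells that express a gene and less RNA per cell cannot be told apart.

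**Figure D1:**
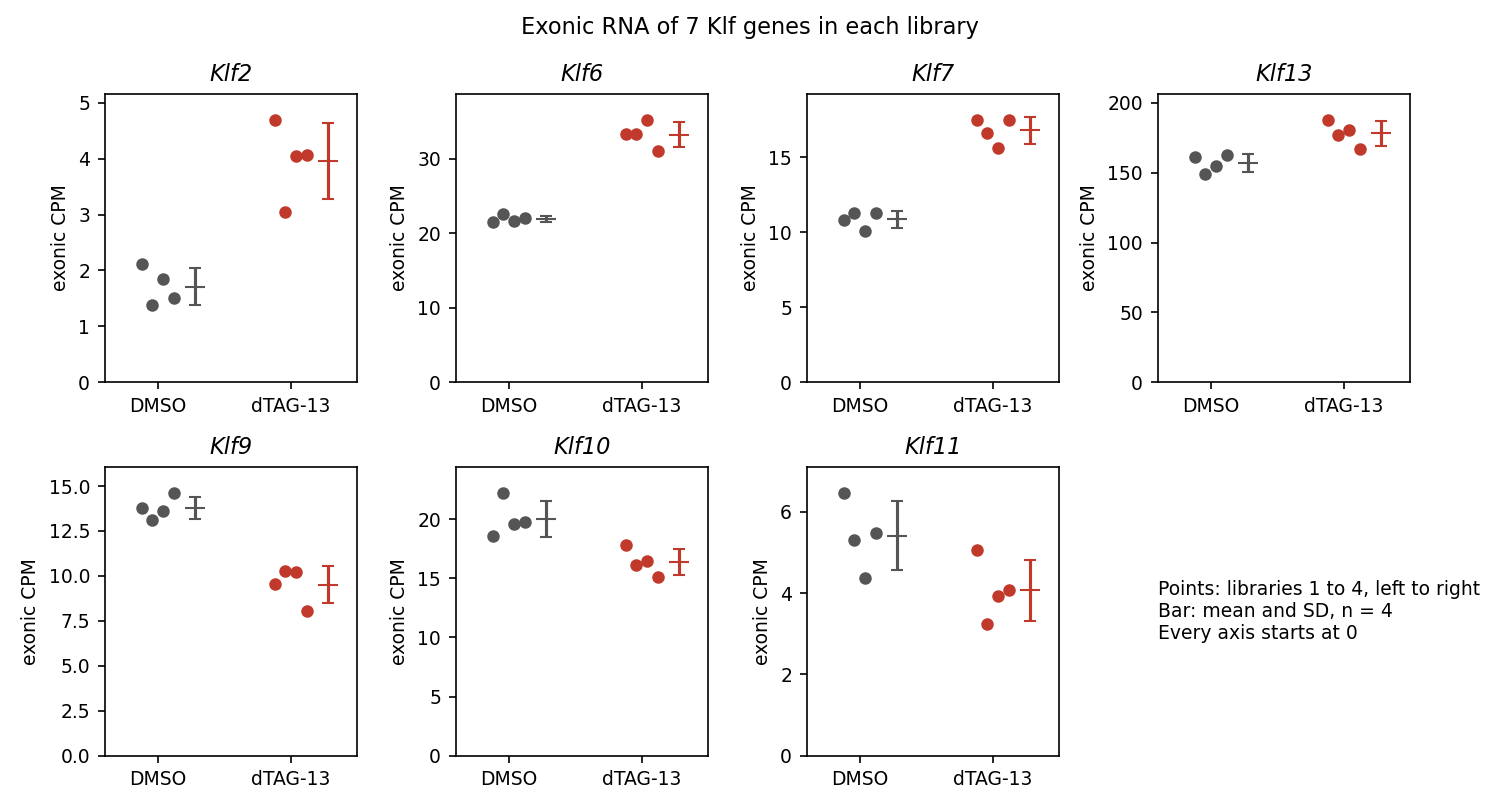
Exonic CPM (vertical axes, each from 0) of the 7 tested Klf genes in the DMSO and dTAG-13 libraries, with points for single libraries and bars for mean and SD (n = 4). The treated libraries lie above all controls for Klf2, Klf6, Klf7 and Klf13 and below all controls for Klf9 and Klf10, and the groups overlap for Klf11.

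Klf2 (ENSMUSG00000055148.7, chromosome 8, 72319033 to 72321656, plus strand) showed the largest change of the 7. It measured 2.11, 1.38, 1.85 and 1.51 exonic CPM with DMSO and 4.70, 3.04, 4.05 and 4.06 CPM with dTAG-13. Every treated library was above every control. The estimated rise was 2.31-fold, a log2 fold change of 1.21 ± 0.19 (SE, 95% interval 0.81 to 1.61, edgeR adjusted p = 1.89e-05). These values rest on 40 to 71 exonic reads per control and 119 to 173 per treated library. The gene spans only 2.6 kb, and its 20 intronic reads over 8 libraries were too few to test. Klf2 was also the only member called in a test against a change of 1.5-fold.

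The promoter of Klf2 is shown because it holds the only MEF2 match among the 9 members with a RefSeq promoter window (all but Klf10). MEF2 proteins carry signals of the ERK5 kinase pathway to Klf2 in other cells. The stretch is chr8:72318812-72319032 on the plus strand (GRCm38.p6) and ends just before the first annotated base of the gene. Capitals mark the match, which begins 118 bases before the RefSeq start site.
Klf2: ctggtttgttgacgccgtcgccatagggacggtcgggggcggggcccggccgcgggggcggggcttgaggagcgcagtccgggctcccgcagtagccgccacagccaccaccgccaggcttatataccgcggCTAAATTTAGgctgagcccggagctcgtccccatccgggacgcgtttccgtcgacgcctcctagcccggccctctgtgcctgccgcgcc
A MEF2 match of this kind stood in 3.19% of 32851 RefSeq windows of the same length (250 bases before to 50 after a start). A match is a description of letters, and no binding was measured. For Klf7 and Klf12 the RefSeq start lies 893 and 134883 bases downstream of the gene's first annotated base. The sequence just before that base was therefore not searched for any pattern in Klf7 and Klf12.

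Klf6 (ENSMUSG00000000078.6, chromosome 13, 5861482 to 5870394, plus strand) is a widely expressed member that many cells induce early after a stimulus. It stood at 21.5, 22.5, 21.6 and 22.0 exonic CPM in DMSO and at 33.3, 33.3, 35.2 and 31.0 CPM after dTAG-13. The controls lay within about 1 CPM of each other and far below the treated libraries. The rise was 1.52-fold (log2 0.60 ± 0.06 SE, edgeR adjusted p = 2.94e-09). Intronic Klf6 reads, 49 to 127 per library, gave 7.61 ± 1.24 CPM in DMSO and 9.42 ± 2.02 CPM after dTAG-13 (SD, n = 4 each). Their log2 difference was 0.30 (95% interval -0.11 to 0.71, edgeR adjusted p = 0.363), which missed the threshold.

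Klf7 (ENSMUSG00000025959.13, chromosome 1, 64029447 to 64122282, minus strand) rose in both read classes. Its exonic level was 10.8, 11.3, 10.1 and 11.3 CPM in DMSO and 17.5, 16.6, 15.6 and 17.5 CPM after dTAG-13, with no overlap. The exonic rise was 1.55-fold (log2 0.63 ± 0.08 SE, edgeR adjusted p = 4.1e-07). Intronic Klf7 measured 48.9, 39.9, 33.3 and 46.4 CPM in DMSO and 62.5, 66.3, 43.9 and 58.3 CPM after dTAG-13. Treated replicate 3 lay among the controls, and the other treated libraries lay above them. The intronic log2 change was 0.46 ± 0.12 (SE, edgeR adjusted p = 0.00736). Intronic reads made up a large share of all Klf7 reads, 54.4% ± 3.25 in DMSO and 50.7% ± 5.63 after dTAG-13 (SD, n = 4 each).

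Klf13 (ENSMUSG00000052040.10, chromosome 7, 63886351 to 63938915, minus strand), known in T cells as an activator of the chemokine gene Ccl5, was the most abundant member. It measured 161, 149, 155 and 163 exonic CPM in DMSO and 188, 177, 181 and 167 CPM after dTAG-13. The groups were close but did not overlap. The rise was small, 1.14-fold (log2 0.18 ± 0.04 SE, edgeR adjusted p = 0.00104). Intronic Klf13 was 199 ± 17.2 CPM and 221 ± 19.9 CPM (SD, n = 4 each), a log2 difference of 0.15 that missed the threshold (95% interval 0.00 to 0.30, edgeR adjusted p = 0.182).

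The Klf13 promoter is shown because it held the EBF1 core pattern CCCNNGGG, as did only Klf3 among the other 8 windows searched (Klf10 has none). The stretch is chr7:63938916-63939165, read on the minus strand (GRCm38.p6), and its last base lies next to the start site. Capitals mark a run where 2 overlapping EBF1 core matches, beginning 20 and 19 bases before the start, also overlap a CACCC match beginning at 22.
Klf13: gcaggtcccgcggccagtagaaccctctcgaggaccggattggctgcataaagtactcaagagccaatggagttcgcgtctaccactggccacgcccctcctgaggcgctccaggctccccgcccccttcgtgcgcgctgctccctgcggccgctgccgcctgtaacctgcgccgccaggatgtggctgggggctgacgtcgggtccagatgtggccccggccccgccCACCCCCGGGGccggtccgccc
The pattern CCCNNGGG, which reads the same on both strands, stood in 13.7% of all windows, and CACCC, searched on both strands, in 57.5%. A longer EBF1 pattern, the core with a further fixed base at each end, stood in 0.904% of all windows. It matched in none of the 9 member windows, Klf13 included. The Klf13 window has 72% GC, against a median of 52.7% over all windows. How often the core stands in windows of similar GC was not tested, and EBF1 binding was not measured. These windows hold only sequence next to the start and say nothing of more distant sites.

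Klf9 (ENSMUSG00000033863.1, chromosome 19, 23141226 to 23168134, plus strand), a gene known to be induced by glucocorticoid and thyroid hormones, had the largest fall. Its exonic level was 13.8, 13.1, 13.6 and 14.6 CPM in DMSO and 9.55, 10.3, 10.2 and 8.03 CPM after dTAG-13. All treated libraries were below all controls. The fall was 1.45-fold (log2 -0.53 ± 0.09 SE, edgeR adjusted p = 3.79e-05). Intronic Klf9 measured 27.9, 27.6, 24.7 and 28.6 CPM in DMSO and 12.2, 19.6, 25.1 and 20.2 CPM after dTAG-13. Treated replicate 1 was lowest, and treated replicate 3 lay among the controls. The intronic log2 change of -0.49 ± 0.15 (SE) passed the test (edgeR adjusted p = 0.0248). Leaving out 1 library could end that call. The edgeR adjusted p was 0.0606 without DMSO replicate 1 and 0.0822 without DMSO replicate 4. It was 0.0938 (log2 change -0.32) when dTAG-13 replicate 1 was left out and 0.0512 when dTAG-13 replicate 2 was.

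The Klf9 promoter is shown because it alone among the 9 windows held the FOXO pattern GTAAACA and the AP-1 pattern TGANTCA, both searched on either strand. FOXO1 and AP-1 are factors of B cells and of stimulated cells, and neither's binding was measured. The stretch is chr19:23140976-23141225 on the plus strand (GRCm38.p6) and ends at the base before the start site. Capitals mark the FOXO match 100 bases before the start and, in 1 run, the AP-1 match at 89 and a CACCC match at 84 that overlaps it.
Klf9: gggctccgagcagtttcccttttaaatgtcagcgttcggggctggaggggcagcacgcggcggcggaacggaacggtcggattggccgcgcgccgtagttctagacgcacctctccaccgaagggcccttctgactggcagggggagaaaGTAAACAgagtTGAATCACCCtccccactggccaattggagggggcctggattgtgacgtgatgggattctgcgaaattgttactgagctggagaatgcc
The FOXO pattern stood in 3.65% of all windows and the AP-1 pattern in 7.81%.

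Klf10 and Klf11 are the TGF-beta inducible early genes, repressors whose own RNA rises in many cells given TGF-beta. Klf10 (ENSMUSG00000037465.9, chromosome 15, 38291463 to 38300706, minus strand) measured 18.6, 22.2, 19.6 and 19.8 exonic CPM in DMSO and 17.8, 16.1, 16.5 and 15.1 CPM after dTAG-13. The highest treated library lay just under the lowest control. The fall was 1.22-fold (log2 -0.29 ± 0.07 SE, edgeR adjusted p = 0.00329). Its intronic reads, 25 to 69 per library, gave a log2 difference of -0.60 (95% interval -1.21 to 0.01, edgeR adjusted p = 0.192).

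Klf11 (ENSMUSG00000020653.11, chromosome 12, 24651274 to 24662789, plus strand) was the weakest call. It measured 6.46, 5.32, 4.38 and 5.49 exonic CPM in DMSO and 5.06, 3.24, 3.92 and 4.09 CPM after dTAG-13. Treated replicate 1 stood above control replicate 3, so the groups overlapped. The log2 change of -0.41 ± 0.15 (SE) passed only just (edgeR adjusted p = 0.0494). It did not pass with DESeq2 (adjusted p = 0.0548), nor with whole-gene counts (edgeR adjusted p = 0.0564). The edgeR adjusted p was 0.175, 0.0778 and 0.0941 with control 1, 2 or 4 left out in turn. It was 0.174, 0.1 and 0.0728 with treated library 2, 3 or 4 left out in turn. In the authors' deposited table Klf11 had an adjusted p of 0.0538, while Klf2, Klf6, Klf7, Klf9, Klf10 and Klf13 had adjusted p-values from 9.36e-20 to 0.00201 there. Intronic Klf11 gave a log2 difference of -0.66 (95% interval -1.40 to 0.09, edgeR adjusted p = 0.251) from 13 to 31 reads per library.

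Klf3, Klf4 and Klf12 were not measurably expressed in exonic reads. Klf3, a repressor found in many blood cells, had 4 exonic reads over all 8 libraries, 2 in each of DMSO replicates 2 and 3. Klf4, known as a reprogramming factor and as a brake on B-cell division, had 0 reads in exons and in whole genes. Klf12 had 0 exonic and 4 intronic reads, although its gene spans 414.0 kb. A count of 0 allows up to 3 reads, which is 0.0765 to 0.104 CPM depending on the library. That limit covers counting error only.

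Compared per kb of exon, Klf13 stood well above the rest in both groups. In DMSO it reached 20.8 ± 0.805 CPM per kb (SD, n = 4), followed by Klf6 at 4.99 ± 0.107 and Klf10 at 4.80 ± 0.363 CPM per kb. Klf6 and Klf10 overlapped between libraries (4.90 to 5.13 and 4.46 to 5.31), so their order in DMSO is not resolved. Klf9 came next at 2.85 ± 0.13 CPM per kb. Klf7 (1.34 ± 0.0699), Klf11 (1.25 ± 0.196) and Klf2 (0.927 ± 0.178) came last, and Klf11 overlapped with both of the others. After dTAG-13 Klf13 was at 23.6 ± 1.18 and Klf6 at 7.56 ± 0.39 CPM per kb, and Klf6 no longer overlapped with Klf10 at 3.92 ± 0.275. Klf2 (2.14 ± 0.373), Klf7 (2.07 ± 0.115) and Klf9 (1.97 ± 0.214) overlapped with each other, and Klf11 was lowest at 0.939 ± 0.173 CPM per kb. Of the summed level per kb of the 10 genes, Klf13 made up 56.3% in DMSO and 55.9% after dTAG-13, Klf6 13.5% and 17.9%, and Klf2 2.51% and 5.07%. These shares take the exon lengths of the GENCODE annotation, which may differ from those used in counting.

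**Figure D2:**
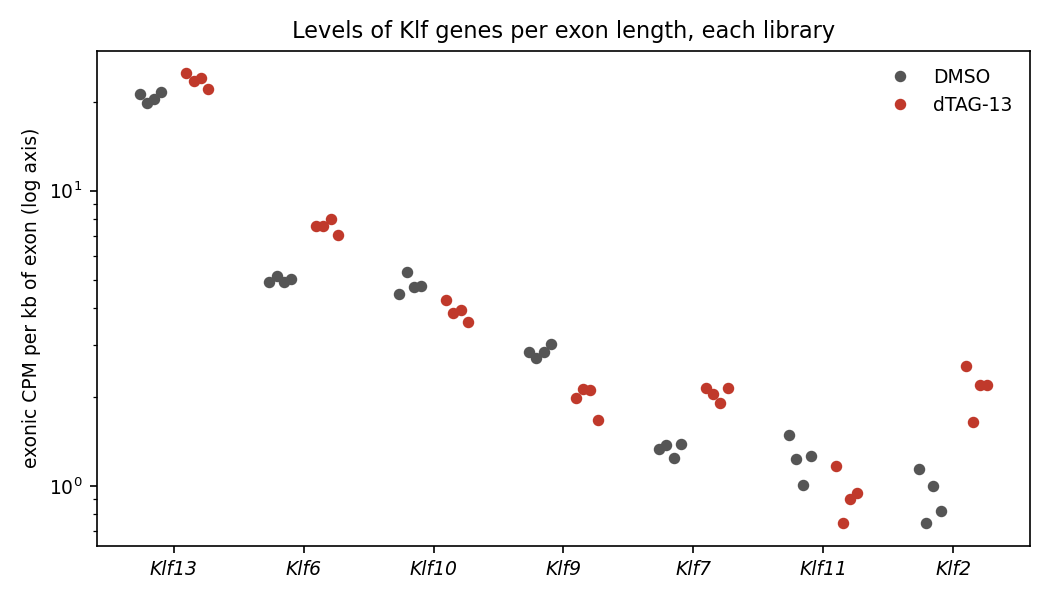
Exonic CPM per kb of exon (log axis) of the 7 tested Klf genes, with 1 point per library, DMSO in grey and dTAG-13 in red. Klf13 lies near 20 CPM per kb in both groups, and Klf2 moves from the lowest place, overlapping Klf11, to the range of Klf7 and Klf9.

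Reads outside exons come largely from RNA not yet spliced, so their change was set against the exonic change. Of the 6 members tested in introns, 1 rose (Klf7) and 1 fell (Klf9), where 16.8% of 11229 genes were called, 8.26% higher and 8.50% lower. In none of the 6 were the intronic groups fully apart (19.5% of all tested genes). The 6 intronic estimates had the same sign as the exonic ones. Their median was -0.17, against 0.00 over all tested genes. A direct test of the exonic against the intronic change called none of the 6 members, by edgeR or by DESeq2, and none had an unadjusted p below 0.05. It called 0.309% of 10026 genes, 0.160% with the exonic change above the intronic and 0.150% below. The differences, exonic minus intronic on the log2 scale, were 0.31 (95% interval -0.05 to 0.67) for Klf6, 0.17 (-0.11 to 0.45) for Klf7 and 0.03 (-0.15 to 0.21) for Klf13. They were -0.03 (-0.41 to 0.35) for Klf9, 0.32 (-0.20 to 0.85) for Klf10 and 0.24 (-0.49 to 0.97) for Klf11. The intervals are wide, and those of Klf6, Klf11 and Klf13 include the gene's own exonic change, taken with its sign. The Klf10 interval ends at -0.20, close to its exonic change of -0.29. Leaving out 1 library at a time moved the estimates over 0.18 to 0.42 for Klf6, 0.08 to 0.25 for Klf7 and -0.03 to 0.11 for Klf13. They moved over -0.21 to 0.08 for Klf9, 0.15 to 0.54 for Klf10 and 0.04 to 0.52 for Klf11, so the sizes of these differences are not resolved.

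**Figure D3:**
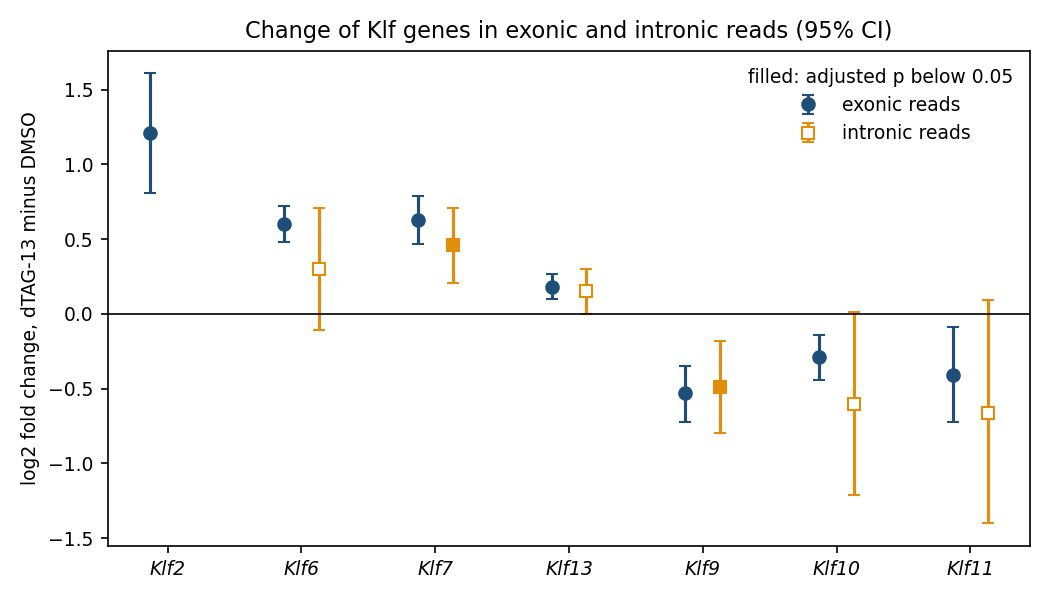
Log2 fold change (dTAG-13 minus DMSO) with 95% intervals for exonic reads (circles) and intronic reads (squares) of the 7 tested genes, filled where the edgeR adjusted p was below 0.05. All exonic estimates are filled, and of the intronic ones only those of Klf7 and Klf9 are. Klf2 had too few intronic reads.

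The intronic share of a gene's reads overlapped between the groups for all 6 members. Klf9 had 38.1% ± 0.127 intronic reads in DMSO and 37.9% ± 9.35 after dTAG-13 (SD, n = 4 each), ranging from 25.2% to 47.5% in the treated libraries. Klf13 had 28.4% ± 3.13 and 27.6% ± 5.56, Klf6 9.79% ± 1.87 and 7.81% ± 0.817, Klf10 7.52% ± 1.67 and 5.80% ± 1.41, and Klf11 13.3% ± 2.67 and 11.3% ± 4.53 (SD, n = 4 each). The share over all genes was lowest in dTAG-13 replicate 1 (20.4%) and highest in dTAG-13 replicate 4 (27.3%). The same held for Klf9 and for Klf13 (22.6% and 34.5% in these libraries). The part of these library shares in the intronic values was not tested.

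**Figure D4:**
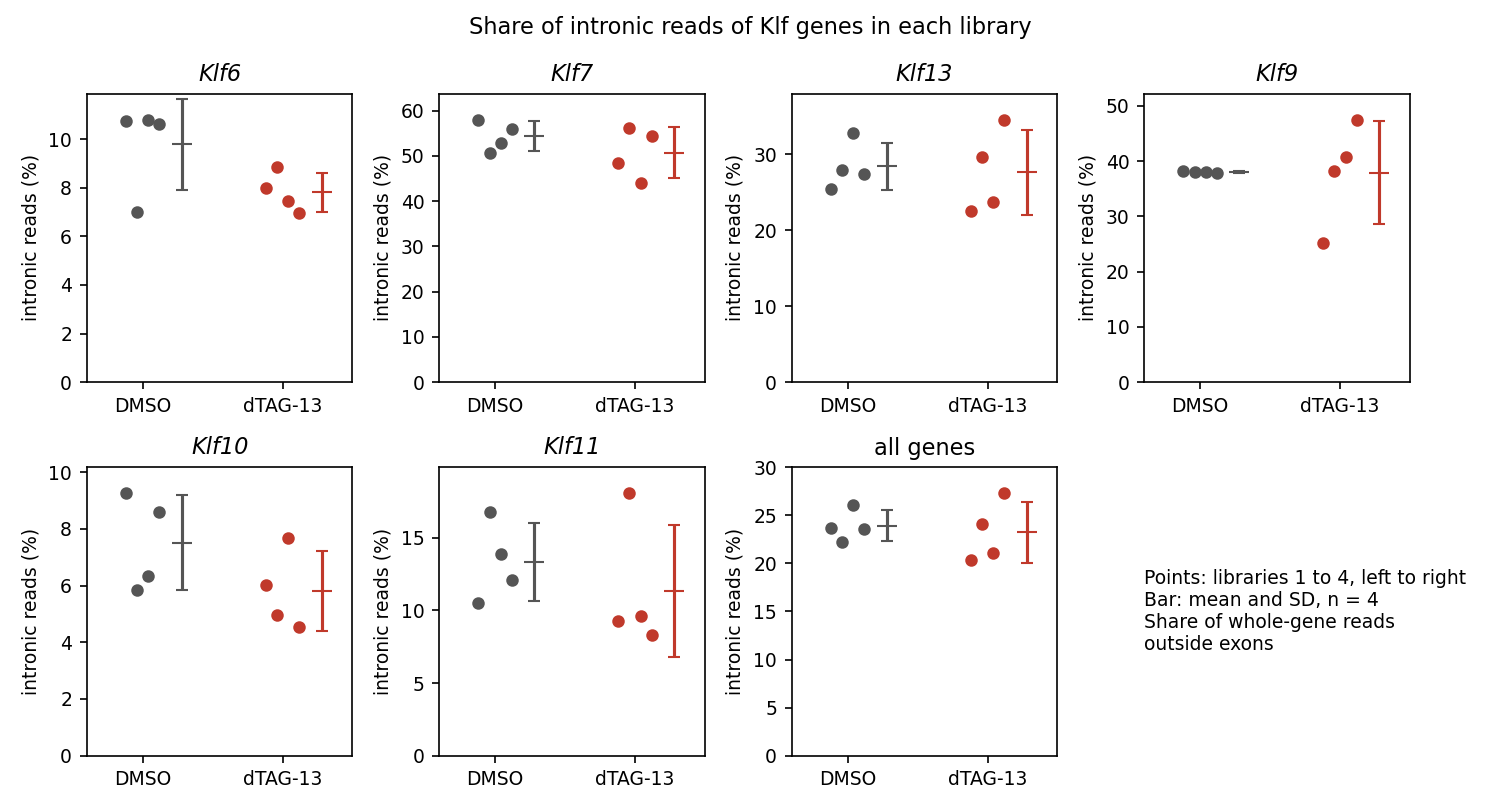
Share of whole-gene reads outside exons (percent, axes from 0) for 6 Klf genes and for all genes, with points for libraries and bars for mean and SD (n = 4). The groups overlap in every panel, and the treated libraries of Klf9 spread from 25.2% to 47.5% around controls near 38.1%.

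Some Klf genes overlap other annotated genes. Antisense or neighbouring genes overlap exons of Klf3 (Gm20033) and Klf7 (Gm26649 and Gm13748) on the opposite strand, and these 3 had at most 1 exonic read in total in either group. The libraries were made with a stranded kit, but the strand setting of the counting is not given, so reads of such pairs cannot be separated with certainty.

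Outside the 10 listed genes, 2 of the other 7 Klf genes could be tested. Klf16, a SIN3A-binding member, fell from 45.9 ± 3.48 to 39.8 ± 1.68 CPM (SD, n = 4 each, log2 -0.21, edgeR adjusted p = 0.00389). Klf1, the erythroid member, measured 0.71 ± 0.16 CPM in DMSO and 0.0857 ± 0.0672 CPM after dTAG-13 (SD, n = 4 each). It passed the filter on low counts only through the DMSO libraries, so its call is given as a description. Of the related SP genes, which bind the same GC-rich sequences, 1 of 4 tested rose, Sp3 (log2 0.15, edgeR adjusted p = 0.00461), and none fell. Without dTAG-13 replicate 2 or 3 the count of SP genes higher was 2. Over all tested genes, 14.3% were called higher and 14.0% lower with all libraries.

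The next lists hold genes for proteins that work with Klf factors or degrade them, and their calls are read beside the 28.3% called over all tested genes. Of 13 co-repressor and co-activator genes, all tested, 2 rose and 1 fell, with a median log2 change of 0.04. The histone acetyltransferase gene Ep300 (log2 0.26) and the CtBP gene Ctbp2 (0.28) rose, while the deacetylase gene Hdac3 (-0.12, edgeR adjusted p = 0.0472) was called lower only narrowly. Its adjusted p was 0.0612 with DESeq2, and leaving out 7 of the 8 libraries in turn, all but dTAG-13 replicate 1, lost the call (edgeR adjusted p up to 0.169, and a count of 2 lower without dTAG-13 replicate 1). Sin3a and Sin3b, which encode the scaffold of the SIN3 complex, differed by -0.07 and -0.04 without passing the test (edgeR adjusted p = 0.247 and 0.55), and were chosen after their values were seen. Of 8 turnover genes 2 rose, the ubiquitin ligase gene Smurf1 (0.29) and Vhl (0.19). That count was 0 when control 2, treated library 1 or treated library 2 was left out. It was 1 when control 3 or control 4 was left out, and 1 with whole-gene counts.

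Genes known to act upstream of Klf2 and Klf4 went both ways. In the list of the MEK5-ERK5-MEF2 route and FOXO factors, 4 of 10 tested genes rose and 2 fell (median log2 change -0.02). The shares over all tested genes were 14.3% higher and 14.0% lower. Mef2c, a B-cell MEF2 factor, went from 89.7 ± 4.71 to 127 ± 3.51 CPM (SD, n = 4 each, log2 0.50, edgeR adjusted p = 2.01e-10), and Mef2a rose by 0.23. Mef2d (-0.38) and Foxo1 (-0.57) fell. With whole-gene counts only 1 gene of the list was called higher, and Mef2a did not pass (edgeR adjusted p = 0.0917).

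The TGF-beta pathway is the input by which Klf10 and Klf11 were first known. In it 8 of 16 tested genes rose and 3 fell (median log2 change 0.12), while Klf10 fell and Klf11 was called lower only narrowly. Among all tested genes, 14.3% were called higher and 14.0% lower. Smad3, a signal carrier, went from 27.1 ± 0.881 to 49.8 ± 1.27 CPM (SD, n = 4 each, log2 0.88, edgeR adjusted p = 4.77e-14). The receptor gene Tgfbr2 rose by 0.54, and the SMAD co-repressor genes Ski and Skil by 0.49 and 0.30. The 3 genes that fell, named after their values were seen, were Acvr1 (-0.48), Tgif1 (-0.27) and Smad7 (-0.23). Signalling through the pathway was not measured.

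Genes reported elsewhere as Klf targets also went both ways. Their counts are read beside the 14.3% called higher and 14.0% called lower over all tested genes. Of 6 tested KLF2 trafficking genes 3 rose and 2 fell (median log2 change 0.19). The chemokine receptor gene Ccr7 went from 18.7 ± 1.45 to 39.8 ± 1.02 CPM (SD, n = 4 each, log2 1.09, edgeR adjusted p = 4.31e-14), and Itgb7, an integrin chain of gut homing, rose by 0.72. Cd69, whose protein opposes S1PR1 at the cell surface, rose by 0.34, and the integrin gene Itga4 fell by 0.60. S1pr1, the best known KLF2 target, had no exonic read in any library, and was singled out after its values were seen. Of 12 tested cell cycle and quiescence genes 5 rose and 2 fell (median log2 change 0.04). The falls were Myc (-1.42) and Ccnd3 (-0.90), and the CDK inhibitor gene Cdkn2d (0.73) and the antiproliferative gene Btg2 (0.57) were among the rises. The count of falls was 4 without dTAG-13 replicate 1. Among 5 tested other targets 2 rose, Thbd (0.56), the thrombomodulin gene that KLF2 induces in endothelium, and Tgfb1 (0.15), and 2 fell, Bcl2l1 (-0.44) and Il7r (-0.38). Ccl5, the target for which Klf13 is known, had no exonic read.

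**Figure D5:**
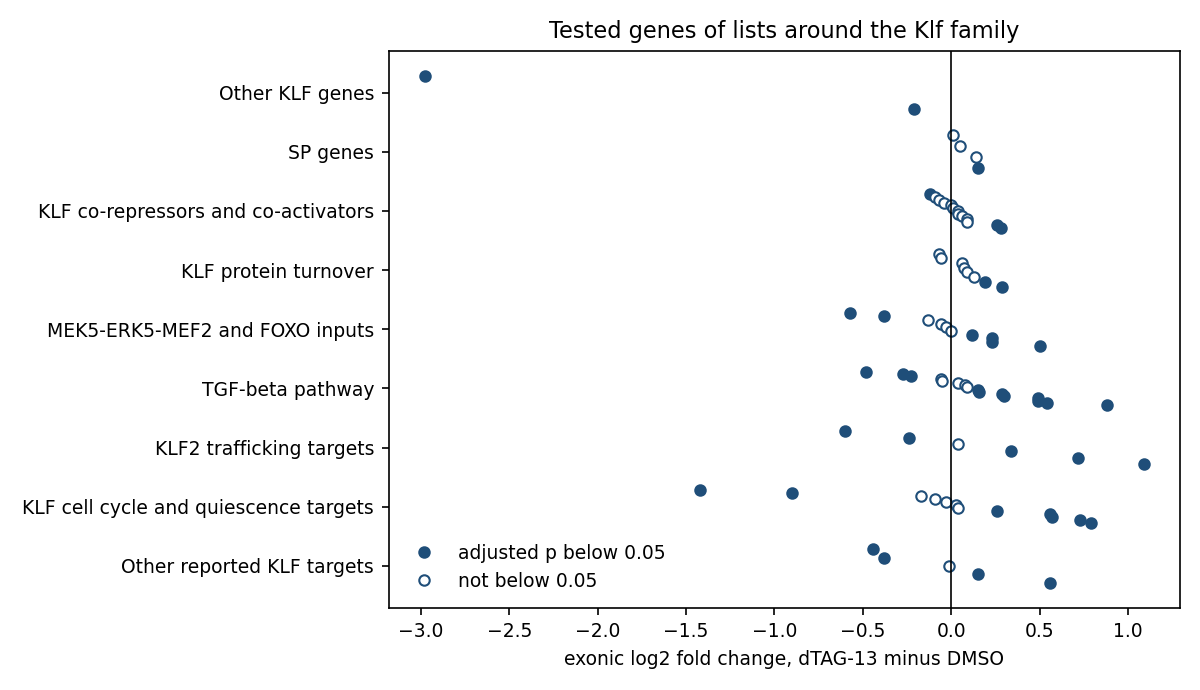
Exonic log2 fold change (horizontal axis, dTAG-13 minus DMSO) of each tested gene in 9 lists around the Klf family, filled where the edgeR adjusted p was below 0.05. Filled points lie on both sides of 0 in the input, TGF-beta and target lists, and most co-repressor and turnover genes are unfilled and close to 0.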

How the data were processed

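RNA was sequenced from 8 libraries of A-MuLV transformed pro-B cells, and each was assigned to DMSO or dTAG-13 by its treatment label. The authors deposited raw counts, 1 table over exons and 1 over whole genes. Alignment with STAR 2.7.4a and counting with featureCounts of Subread 2.0.0 are listed in the submitters' processing notes, beside mm10 and GRCm38.p4 as builds. How strand was set in counting, and the annotation release, is not given in the sources used here. The authors' deposited DESeq2 table, per the file headers, holds log2 fold changes with their standard errors, p-values, adjusted p-values and mean values per gene. It was used for gene names and for the values credited to it.

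Intronic counts were taken as whole-gene minus exon counts. Counts were tested with edgeR 4.0.16 (R 4.3.3, quasi-likelihood F test, TMM, filterByExpr with minimum count 10 and minimum total 15) with treatment as the only term. P-values were adjusted by Benjamini-Hochberg over all tested genes, and calls were made at 0.05. Standard errors and 95% intervals were derived from the F statistic and its degrees of freedom. The interaction of read class with treatment was tested over 16 columns with the library as a block. CPM values use TMM-scaled library sizes, so they are shares of the RNA of a library. The scripts were tested on simulated data. Alternatives were DESeq2 1.42.0, RLE factors, no filter, whole-gene counts, 2 ribosome-like genes left out, a replicate block, a test against 1.5-fold, and each library left out in turn.

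Members and gene lists were chosen with earlier results of these data known. All 10 members are named, and of each list up to 4 called genes with the smallest p. A few further genes were named after their values were seen. Exon lengths and coordinates are from GENCODE vM21 (GRCm38, 1-based), matched by gene ID without its version, and promoter windows are from RefSeq (GRCm38.p6). The median standard error over all genes was 0.07 in exonic and 0.11 in intronic counts on the log2 scale. Some listed genes are not reported here by name.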

Additional observations from a re-analysis of the deposited data

Results flagged for a closer look

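Among 38 sets of 4 libraries (exonic CPM, intronic CPM and intronic share of the tested Klf genes in each group), 2 held a library far from the other 3. Chance alone flags about 1 in 20 such sets. The intronic share of Klf6 in DMSO replicate 2 was 6.99% (exact Clopper-Pearson 95% interval 5.2% to 9.1%), where the other controls lay between 10.6% and 10.8%. The intronic share of Klf11 in dTAG-13 replicate 2 was 18.1% (exact Clopper-Pearson 95% interval 12.4% to 25.0%), where the other treated libraries lay between 8.33% and 9.58%. These intervals cover counting error only.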

How the results depend on the processing

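The count of Klf members called higher in exonic reads was 4 under 14 of 15 alternatives and the count called lower 2 or 3 under the same 14. Against a change of 1.5-fold, 1 member was higher and 0 were lower in exonic reads, and 0 and 0 in intronic reads. Leaving out single libraries gave 0 to 1 members lower in introns, which turns on Klf9. No exonic or intronic member estimate changed sign. The difference of exonic and intronic change did for Klf9 (-0.21 to 0.08) and Klf13 (-0.03 to 0.11) when libraries were left out, both close to 0, and no member was called under any of these settings. Libraries with the same replicate number did not deviate together (r from -0.0237 to 0.0453), and 2 of 4 numbers had their best match in the same number. With the replicate block, 4 members were higher and 3 lower in exons and 1 and 1 in introns, with 3753 calls over all genes against 3649. Depth limits the intronic values of Klf2, Klf10 and Klf11 most.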
